A study of Arabidopsis thaliana with 32 samples.

Results

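AT1G10650, AT1G23720, AT5G23240 (DJC76) and AT5G42760 are 4 Arabidopsis loci that were selected on the size of the usage rhythms of their isoforms in continuous light. Their transcripts were taken as the rows named after each locus plus the assembled rows (named MSTRG) that share its gene identifier. This gave 16 of 66968 transcripts in the continuous-light table, split into 3, 8, 2 and 3 for the 4 loci, and 20 of 70053 in the long-day table, split into 4, 10, 3 and 3. Each locus had a gene identifier of its own, shared with no other locus. Whole Col-0 seedlings grew for 8 days at 24 °C under 16 h of light and 8 h of dark. A set of them was then placed in continuous light and another stayed in those long days, for 2 further days per the labels' protocols and for 1 day per the design text of the series. RNA was sequenced in 16 libraries of each regime, taken every 3 h from 2 h to 47 h after dawn or subjective dawn, with 1 library per time point. The labels name 1 accession and no other difference between the regimes than light, and every plant had 8 days of long days behind it.

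The circadian clock of plants keeps time in constant light by transcriptional feedback between morning and evening genes, and it reaches many transcripts through both their synthesis and their splicing. Intron retention is a frequent form of alternative splicing in plants, and a retained intron in a coding region often brings an early stop codon. In the RefSeq annotation, DJC76 encodes a DNAJ heat shock N-terminal domain protein. J-domain proteins of this type stimulate the ATPase of Hsp70 chaperones, and DJC76 belongs to those of the chloroplast. AT1G10650 encodes a protein of the S-ribonuclease binding protein family, whose best known Arabidopsis members are the RING-type ubiquitin ligase BOI and its relatives. AT5G42760 is annotated as a leucine carboxyl methyltransferase, a family named for enzymes that methylate the last leucine of a phosphatase subunit. AT1G23720 encodes a proline-rich extensin-like protein, one of the repetitive glycoproteins of the cell wall.

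The assembled isoforms of DJC76 and AT5G42760 differed from the first annotated ones by 1 kept intron, most of them also by their ends. The tables give each transcript's ends, exon number and length but no exon positions, so kept introns were inferred as the only set of annotated introns that fits those values. At DJC76 (TAIR10 chromosome 5, 7826732 to 7828724, minus strand) the assembled form MSTRG.20590.1 of continuous light had 3 exons and 1711 nt, which fits retention of the third intron of AT5G23240.1. Long-day MSTRG.22664.2 has the same ends, exon number and length, and long-day MSTRG.22664.1 (1723 nt) fits retention of the first intron. At AT5G42760 (chromosome 5, 17148808 to 17150451, plus strand) the assembled forms of both tables, MSTRG.21624.2 and MSTRG.23851.2, were single exons that hold the only intron of AT5G42760.1. These 3 introns are printed from the RefSeq genome TAIR10.1, 5′ to 3′ on the gene's strand with the splice sites in capitals, because their presence separates the isoforms compared here. They lie at chr5:7827481-7827551, chr5:7828116-7828201 and chr5:17149371-17149476, each between coding exons.
DJC76 intron 3: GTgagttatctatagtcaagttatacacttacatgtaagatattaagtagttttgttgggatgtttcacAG
DJC76 intron 1: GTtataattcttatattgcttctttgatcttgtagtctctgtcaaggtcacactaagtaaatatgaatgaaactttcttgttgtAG
AT5G42760 intron 1: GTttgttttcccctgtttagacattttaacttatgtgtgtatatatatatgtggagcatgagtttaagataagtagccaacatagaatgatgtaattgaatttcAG
Each began with GT and ended with AG. Read in the frame of the spliced transcript, each kept intron met a stop codon inside the intron. Retention of DJC76 intron 1 put the first stop at codon 120 and retention of intron 3 at codon 263, against 465 codons in the spliced form. Retention at AT5G42760 put it at codon 146, against 348 codons.

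AT1G10650 (chromosome 1, 3523986 to 3526531, minus strand) differed in that its kept intron lay outside the coding region. MSTRG.1045.2 in continuous light (4 exons, 1424 nt) fits retention of intron 1 (128 nt, chr1:3525972-3526099, in the 5′ UTR), with introns 2, 3 and 4 spliced. Its 5′ end lay 408 nt downstream of that of AT1G10650.1, which left 24 nt of exon before the intron, against 432 nt in AT1G10650.1. Whether it is a retained intron or a later start cannot be told apart from these values. The long-day form MSTRG.1075.2 (1647 nt) also fits retention of intron 1 but has 247 nt of exon before it. The long-day form MSTRG.1075.3 (5 exons, 1290 nt) has the same ends as MSTRG.1045.2 but fits no set of annotated introns. No long-day form thus has the ends, exon number and length of MSTRG.1045.2. Annotated AT1G10650.2 keeps intron 3 (90 nt).

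**Figure D1:**
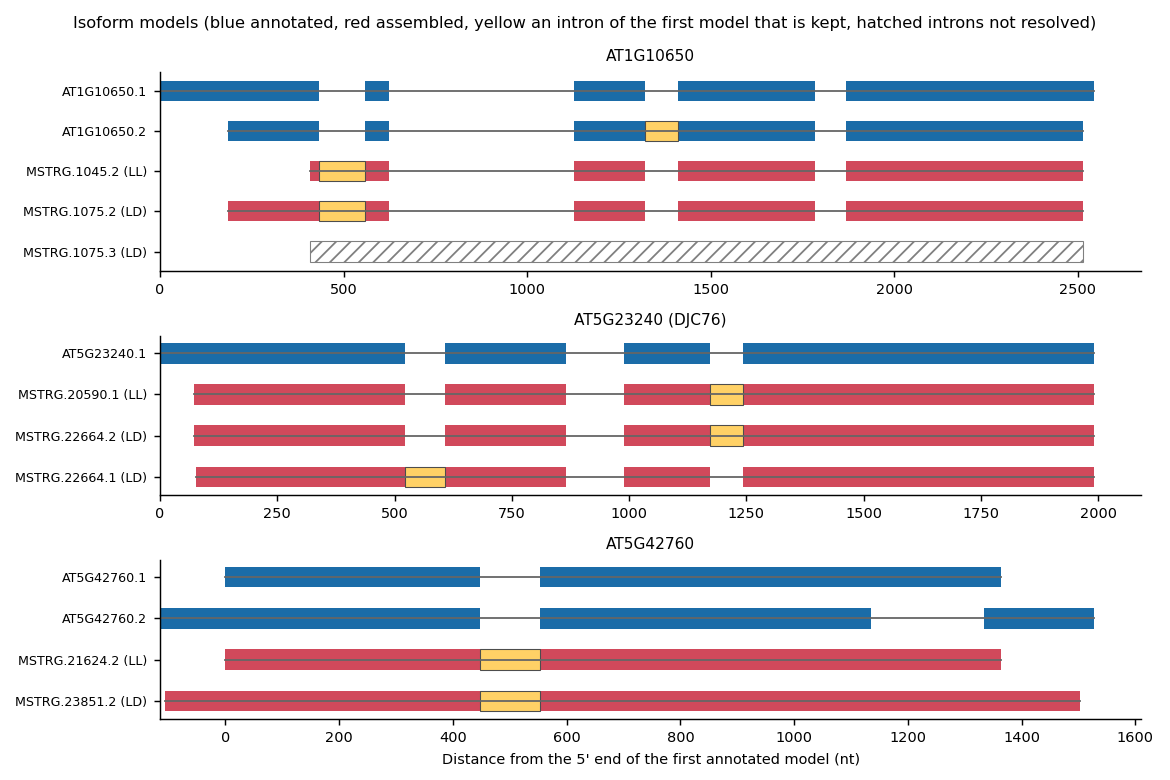
Isoform models of 3 loci, drawn 5′ to 3′ against the distance in nt from the 5′ end of the first annotated model. Blue bars are exons of annotated models, red bars those inferred for assembled ones (LL, continuous-light table; LD, long-day table), yellow blocks are introns of the first model that are kept, and the hatched bar marks MSTRG.1075.3, whose introns could not be resolved; at DJC76 and AT5G42760 the assembled forms differ from the first model by 1 kept intron.

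AT1G23720 (chromosome 1, 8388297 to 8391623, plus strand) was of another kind. Its annotated introns are 75 nt long, begin with AT and end with AC instead of GT and AG, and lie inside a repeat. The intron of AT1G23720.3 (chr1:8390469-8390543) and the 75 bases after it (chr1:8390544-8390618) are identical at 90.7% of positions. They are shown because the annotated introns lie in this repeat. Of the assembled isoforms, MSTRG.2283.5 and MSTRG.2429.7 fit the removal of this intron, and which bases the others lack is unknown. Capitals mark the first and last bases of the intron in the first line and the differing bases in the second.
AT1G23720.3 intron: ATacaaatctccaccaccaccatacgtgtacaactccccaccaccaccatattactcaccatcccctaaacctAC
next bases: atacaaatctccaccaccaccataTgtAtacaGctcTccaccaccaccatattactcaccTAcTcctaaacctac
Of the 3278 windows of 50 nt in the locus, 132 (4.03%) occur more than once in the genome, against 0 windows at each of the other 3 loci. Its assembled isoforms began 1206 or 1264 nt downstream of the start of AT1G23720.1. Their introns were 75, 78, 153, 231 or 309 nt long. A read that lies within a repeated window can match more than 1 place. The part of this in the isoform values of AT1G23720, which are uncertain, was not tested.

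The usage of an isoform was measured as its FPKM (fragments scaled to transcript length and library total) plus 0.5, divided by the FPKM of all other isoforms of the gene plus 0.5, on the log2 scale, and a 24 h cosine was fitted to it. The continuous-light values chose the loci, so they are described without a test. Amplitudes by day or with 1 library left out, given below, use the same values and are no separate support for a rhythm. In continuous light 0 of 22717 isoforms (0%) passed an adjusted p under 0.05 (limma), and 1193 had an unadjusted p under 0.05. The members held 7 of the first 8 places by p, at amplitudes (log2) of 2.27 ± 0.30 for MSTRG.1045.2, 2.37 ± 0.32 for AT1G10650.1, 2.71 ± 0.39 for MSTRG.2283.5 of AT1G23720, 1.74 for both isoforms of DJC76, 1.51 for AT5G42760.1 and 1.54 for MSTRG.21624.2. Place 4 belonged to AT2G43010.2, an isoform of another locus, with 1.64, and the nearest isoform outside, AT1G15930.1 at place 9, had 1.47. Places follow p and not amplitude: AT4G13940.2 and AT4G13940.1, at places 12 and 13, had 10.2, more than any member. In a locus with 2 isoforms, such as DJC76 in continuous light, one usage curve is the mirror image of the other, so the opposition of usage there is set by the measure. With 0.5 FPKM added, the usage of an isoform near 0 also mirrors the level of the rest of its gene. AT5G42760.2, at most 0.135 FPKM in continuous light, had a usage amplitude of 1.45 and a peak at 10.1 h. Those of MSTRG.21624.2 were 1.54 and 9.82 h. For these reasons the opposition of phase has to be read from the levels.

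In levels, the 2 isoforms of highest mean in continuous light had fitted peaks on opposite sides of the day at AT1G10650, but not at DJC76 or AT5G42760; at AT1G23720 the order of their peaks was not resolved. In continuous light MSTRG.1045.2 had 12.6 FPKM at 2 h, 8.38 at 5 h, 3.48 at 8 h, 2.37 at 11 h, 1.81 at 14 h, 1.10 at 17 h, 3.49 at 20 h and 7.59 at 23 h. The next day brought 9.68 FPKM at 26 h, 7.01 at 29 h, 2.91 at 32 h, 1.60 at 35 h, 0.0886 at 38 h, 0.992 at 41 h, 2.68 at 44 h and 2.81 at 47 h. The isoform was thus high around subjective dawn on both days and low around subjective dusk.

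AT1G10650.1 ran the other way, with 1.34 FPKM at 2 h, 1.76 at 5 h, 5.03 at 8 h, 6.03 at 11 h, 5.24 at 14 h, 10.7 at 17 h, 6.75 at 20 h and 2.29 at 23 h. Its second day gave 1.43 FPKM at 26 h, 2.44 at 29 h, 4.90 at 32 h, 4.15 at 35 h, 7.34 at 38 h, 7.44 at 41 h, 7.14 at 44 h and 6.45 at 47 h. MSTRG.1045.2 exceeded AT1G10650.1 in 5 of 16 libraries, those at 2, 5, 23, 26 and 29 h, and the library at 47 h did not return to the order seen at 23 h. The fitted curves on log2(FPKM + 1), the scale of every fold given here, peaked at 2.65 ± 0.46 h for MSTRG.1045.2 (5.66-fold from peak to trough) and at 15.7 ± 0.69 h for AT1G10650.1 (3.15-fold), 10.97 ± 0.83 h apart. The error of this and every later gap treats the 2 curves as independent, though both come from the same 16 libraries. The third isoform, AT1G10650.2, was at 0 FPKM in 8 of 16 libraries and reached 4.06 FPKM at 20 h. MSTRG.1045.2 and AT1G10650.1 differ only by the kept intron and their ends, so many reads could fit both. The part of sharing reads out between these isoforms in their opposed courses was not tested.

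The sum over the 3 isoforms of AT1G10650 moved less than either main isoform. It lay between 5.75 FPKM (35 h) and 14.3 FPKM (20 h) in continuous light, with a fitted 1.70-fold change and a peak at 23.3 ± 0.66 h. The share of MSTRG.1045.2 in that sum was between 1.19% (38 h) and 90.4% (2 h). Its usage amplitude was 2.33 in the second day and 2.22 in the first, with peaks at 3.497 and 3.23 h. It stayed between 2.08 and 2.45 when any 1 library was left out. These values chose the locus, so their likeness is no separate support for the rhythm.

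In long days the total of AT1G10650 lay between 7.61 FPKM (8 h) and 18.8 FPKM (26 h), and its highest libraries were those of 26 h and 2 h. Its isoforms alternated from library to library. AT1G10650.1 had a lowest value of 0.139, a median of 2.58 and a highest value of 6.26 FPKM, MSTRG.1075.2 had 1.89, 3.81 and 9.30 FPKM, and MSTRG.1075.3 had 0, 3.25 and 9.30 FPKM with 5 libraries at 0. AT1G10650.1 was at 5.71 FPKM at 8 h, 0.139 at 11 h, 5.07 at 14 h and 0.481 at 17 h, and MSTRG.1075.2 was at 1.89, 9.30, 3.27 and 5.35 FPKM in the same libraries. Neighbouring time points thus swapped the leading isoform while the total stayed between 7.61 and 11.5 FPKM. No 24 h course like that of continuous light was detected: the level rhythm had an adjusted p of 0.393 for AT1G10650.1, 0.866 for MSTRG.1075.2 and 0.640 for MSTRG.1075.3 (limma, over 32425 isoforms). The fitted peak of AT1G10650.1 in long days was 1.74 ± 1.87 h.

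**Figure D2:**
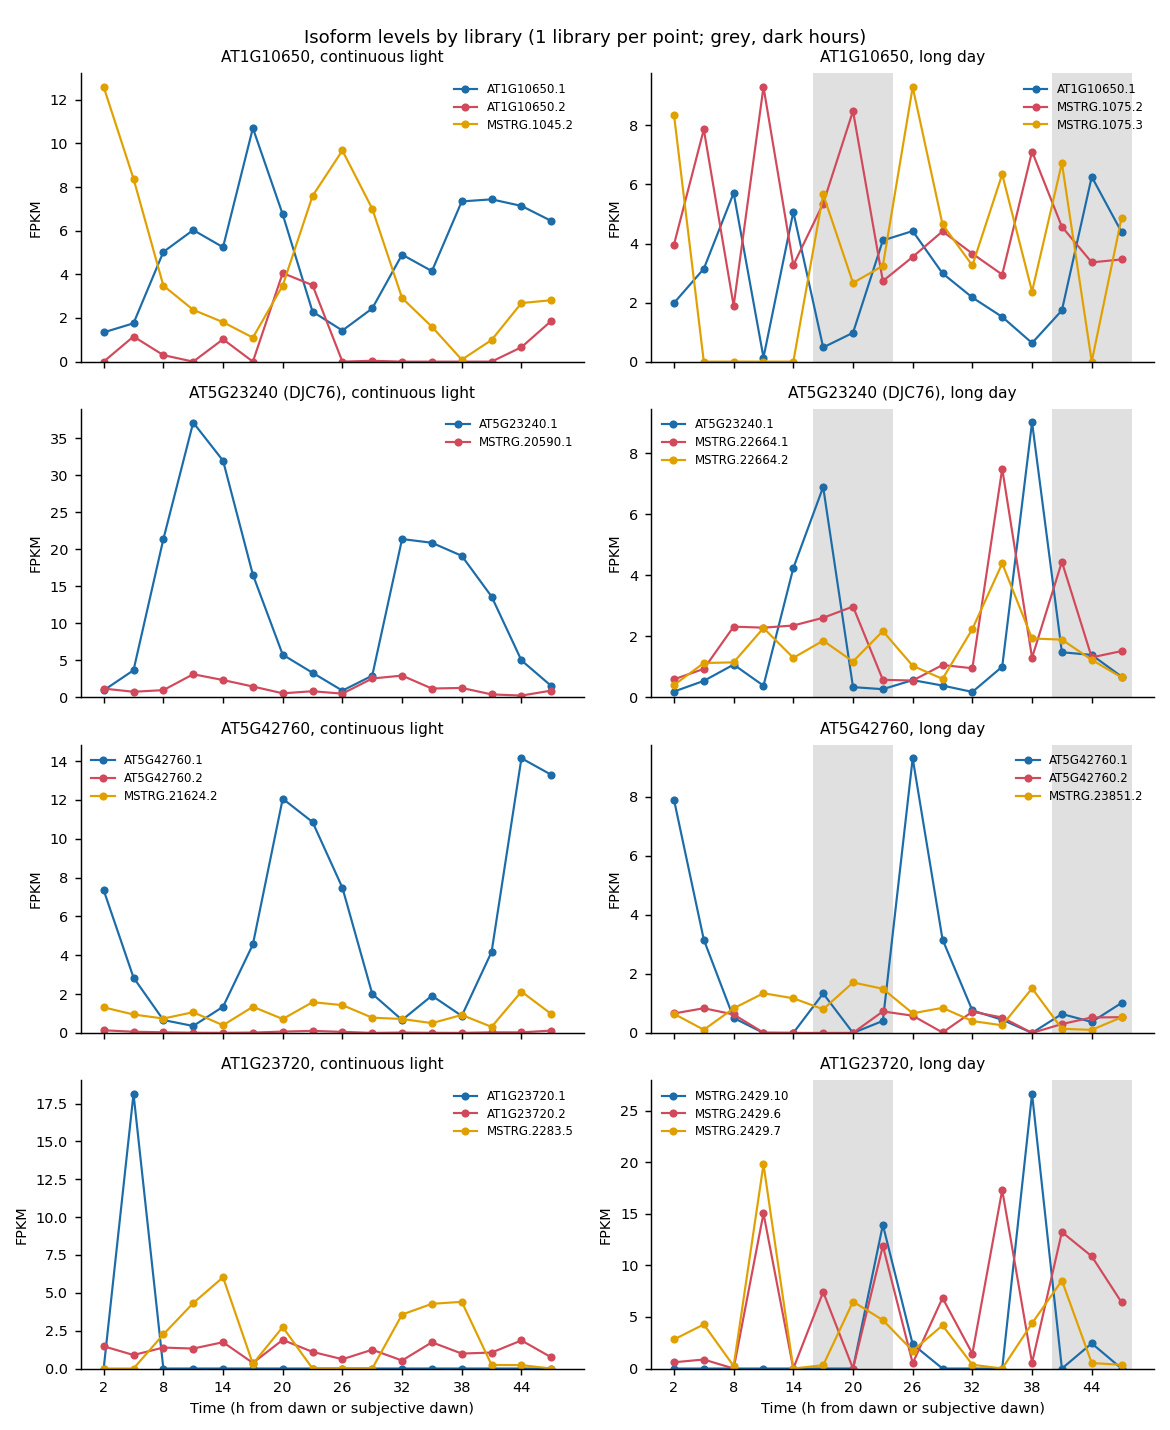
FPKM of the 3 most abundant isoforms of each locus (2 at DJC76 in continuous light) against time in h, continuous light on the left and long days on the right; each point is 1 library, lines join the points, and grey bands mark dark hours. At AT1G10650 in continuous light MSTRG.1045.2 is highest at 2 and 26 h and AT1G10650.1 at 17 and 41 h, and at DJC76 AT5G23240.1 reaches 37.2 FPKM in continuous light and 9.02 FPKM in long days.

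At DJC76 the spliced and the intron 3 form had their fitted peaks on the same side of the day in continuous light, and the spliced form covered the wider range. AT5G23240.1 in continuous light had 0.933 FPKM at 2 h, 3.65 at 5 h, 21.4 at 8 h, 37.2 at 11 h, 32 at 14 h, 16.6 at 17 h, 5.76 at 20 h and 3.31 at 23 h. On the second day it had 0.898 FPKM at 26 h, 2.92 at 29 h, 21.4 at 32 h, 20.9 at 35 h, 19.1 at 38 h, 13.6 at 41 h, 4.99 at 44 h and 1.53 at 47 h. The fitted curve changed 14.9-fold and peaked at 12.7 ± 0.32 h.

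MSTRG.20590.1, with intron 3, had a lowest value of 0.230, a median of 1.07 and a highest value of 3.11 FPKM, and its highest library was also that of 11 h. Its fitted curve changed 1.98-fold with a peak at 9.58 ± 1.18 h, 3.08 ± 1.22 h from that of the spliced form. Its share of the gene was 55.6% at 2 h, 7.73% at 11 h, 35.3% at 26 h, 46.5% at 29 h, 2.78% at 41 h and 37.1% at 47 h. The high shares thus fell at the trough of the spliced form, where the level of MSTRG.20590.1 was between 0.490 and 2.54 FPKM in those 4 libraries. The usage amplitude, given as a description, was 1.98 in the second day and 1.56 in the first. It lay between 1.62 and 1.84 with any 1 library left out.

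The total of DJC76 had a median of 10.2 FPKM and a highest library of 40.3 FPKM (11 h) in continuous light, against 4.203 FPKM and 12.9 FPKM (35 h) in long days. Its fitted curve changed 11.4-fold with a peak at 12.4 ± 0.31 h in continuous light, given as a description. In long days the total was rhythmic, with a 4.14-fold change and a peak at 14.4 ± 0.44 h (adjusted p = 7.08e-05, limma). Its highest libraries there were those of 17 h on the first day and 35 h on the second.

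The isoforms of DJC76 divided the long-day total differently. AT5G23240.1 made up 90.7% of the mean total in continuous light and 32.8% in long days, and the intron 3 form (the same model in both tables) 9.27% and 29.1%. The intron 1 form MSTRG.22664.1, with 38.1%, was listed in the long-day table alone. Transcripts were assembled and merged separately in the 2 tables, so the isoforms among which reads are shared out differ between the regimes, and its part in these shares was not tested. In long days AT5G23240.1 ranged from 0.175 to 9.02 FPKM with a median of 0.620, MSTRG.22664.1 from 0.549 to 7.50 with a median of 1.41, and MSTRG.22664.2 from 0.402 to 4.39 with a median of 1.26. The spliced form led in the libraries of 14, 17, 38 and 44 h, and at 35 h, where the total was highest, it had 1.003 FPKM against 7.50 FPKM of the intron 1 form. Their fitted peaks fell within about the same hours, at 15.2 ± 0.9998 h for AT5G23240.1, 14.1 ± 1.08 h for MSTRG.22664.1 and 13.1 ± 1.21 h for MSTRG.22664.2. The level rhythm of each missed the threshold, with adjusted p = 0.0542, 0.0791 and 0.147 (limma), and that of AT5G23240.1 passed when the library of 11 h (adjusted p = 0.0326) or 20 h (0.0432) was left out. MSTRG.22664.1 passed without the library of 38 h (0.0312) and MSTRG.22664.2 without that of 23 h (0.0493).

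At AT5G42760 the spliced form covered a wide range in continuous light and the unspliced form a narrow one. AT5G42760.1 in continuous light had 7.35 FPKM at 2 h, 2.85 at 5 h, 0.664 at 8 h, 0.356 at 11 h, 1.35 at 14 h, 4.56 at 17 h, 12.1 at 20 h and 10.9 at 23 h. It then had 7.48 FPKM at 26 h, 2.01 at 29 h, 0.666 at 32 h, 1.92 at 35 h, 0.876 at 38 h, 4.17 at 41 h, 14.1 at 44 h and 13.3 at 47 h. The fitted curve changed 9.39-fold, and its peak at 22.2 ± 0.27 h lay before subjective dawn.

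The single-exon form MSTRG.21624.2 ranged from 0.312 to 2.13 FPKM with a median of 0.936, and its highest library was the 44 h one, as for the spliced form. Its curve changed 1.44-fold with a peak at 23.6 ± 1.52 h, 1.45 ± 1.55 h from that of AT5G42760.1. With this error, which ignores the shared libraries, the peaks were not told apart. The share of MSTRG.21624.2 was 51.6% at 8 h and 74.5% at 11 h on the first day and 51.2% at 32 h and 51.3% at 38 h on the second, when the spliced form was at 0.356 to 0.876 FPKM. In the libraries at 20 h and 47 h it was 5.57% and 6.76%. Usage amplitudes of AT5G42760.1, also given as a description, were 1.36 in the second day and 1.67 in the first.

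In long days the spliced form was high after dawn and not before it. AT5G42760.1 had 7.91 FPKM at 2 h and 9.31 FPKM at 26 h, 3.16 and 3.17 FPKM at 5 and 29 h, and at most 1.34 FPKM in each of the other 12 libraries, with 4 libraries at 0. At 20, 23, 44 and 47 h, where continuous light gave 12.1, 10.9, 14.1 and 13.3 FPKM, long days, which are dark at these hours, gave 0, 0.406, 0.371 and 1.02 FPKM. The fitted total changed 7.03-fold with a peak at 22.2 ± 0.27 h in continuous light, given as a description. In long days it changed 3.21-fold with a peak at 2.73 ± 0.80 h (adjusted p = 0.00538, limma), and the spliced isoform 4.70-fold with a peak at 2.78 ± 0.93 h (adjusted p = 0.0373). The isoform's long-day call was lost in 9 of 16 fits that left out 1 library, those without 2, 5, 11, 14, 26, 29, 35, 38 or 44 h (adjusted p up to 0.0912), and with no filter on low values (0.0622). MSTRG.23851.2 stayed between 0.101 and 1.71 FPKM in long days and made up 100% of the total at 14, 20 and 38 h, where the other isoforms were at 0. Its fitted peak lay 10.5 ± 5.72 h from that of AT5G42760.1, on a curve of 1.16-fold. AT5G42760.2, which is annotated with a second intron in its last part, was at 0.0430 ± 0.0436 FPKM in continuous light and 0.378 ± 0.321 FPKM in long days (mean ± SD over 16 libraries each).

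**Figure D3:**
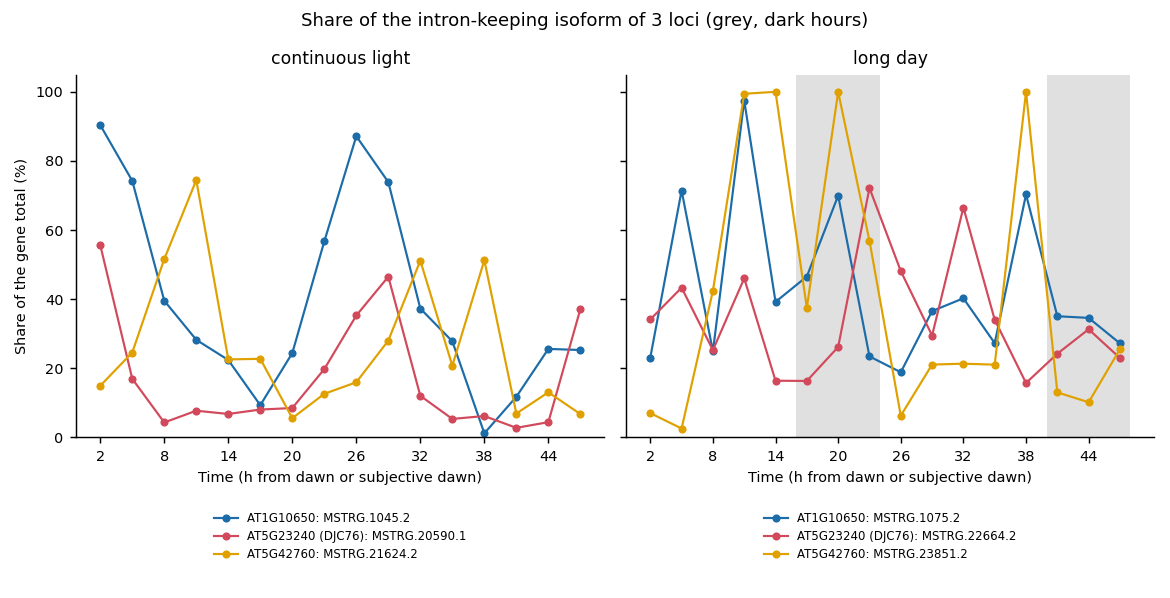
Share (%) of the gene total held by 1 assembled isoform of AT1G10650, DJC76 and AT5G42760 against time in h. Each of these isoforms fits a kept intron. On the left, continuous light, are MSTRG.1045.2, MSTRG.20590.1 and MSTRG.21624.2. On the right, long days, are MSTRG.1075.2, MSTRG.22664.2 and MSTRG.23851.2. The 2 AT1G10650 models have different 5′ ends, and the intron 1 form of DJC76 is not drawn. Each point is 1 library and grey bands mark dark hours. In continuous light MSTRG.1045.2 lies at 90.4% at 2 h and 1.19% at 38 h, and MSTRG.21624.2 is highest, 74.5%, at 11 h, and in long days MSTRG.23851.2 reaches 100% in 3 libraries.

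At AT1G23720 in continuous light, 1 isoform had a course that recurred on both days. MSTRG.2283.5, the member with the largest usage amplitude, was at 0 FPKM in 6 of 16 continuous-light libraries. It stood at 2.25, 4.32 and 6.03 FPKM at 8, 11 and 14 h and at 3.56, 4.27 and 4.40 FPKM at 32, 35 and 38 h, so its high libraries were those of the subjective afternoon and evening on both days, beside 2.74 FPKM at 20 h. The fitted peak of its level was 12.2 ± 0.73 h, with 5.89-fold. As a description, its usage amplitude was 2.91 in the second day and 2.69 in the first, with peaks at 12.1 and 14.1 h. It lay between 2.52 and 2.96 with any 1 library left out. AT1G23720.2 stayed between 0.370 and 1.89 FPKM in continuous light, and the fitted peaks of these 2 isoforms were 3.02 ± 6.10 h apart, so their order was not resolved.

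The other isoforms of the locus in continuous light were high in 1 or 2 libraries or stayed low. AT1G23720.1 had 18.1 FPKM at 5 h and was near 0 in each of the other 15 continuous-light libraries, and AT1G23720.4 was at 0 in all 32. MSTRG.2283.8 had 3.52 FPKM at 23 h and 11.1 FPKM at 26 h and was at 0 in the other 14 libraries, so its fitted peak of 0.887 ± 1.94 h, opposite to that of MSTRG.2283.5, rests on a single dawn. MSTRG.2283.7 had 4.75 FPKM at 20 h and 4.39 FPKM at 47 h and was at 0 in 11 libraries, with a fitted peak at 21.7 ± 2.60 h. In long days the model with the same ends, exon number and length as MSTRG.2283.5, MSTRG.2429.7, had a lowest value of 0, a median of 2.27 and a highest value of 19.8 FPKM (11 h). Its level was not rhythmic (adjusted p = 0.989), with an amplitude (log2) of 0.15 ± 0.51. Of the other long-day forms, MSTRG.2429.6 had a median of 3.93 FPKM and reached 17.3 FPKM at 35 h, with 3 libraries at 0. MSTRG.2429.5 had a median of 1.54 FPKM and reached 5.16 FPKM at 47 h, with 4 at 0. MSTRG.2429.10 reached 26.6 FPKM at 38 h with 12 at 0, and MSTRG.2429.9 reached 8.18 FPKM at 11 h with 13 at 0. AT1G23720.2 ranged from 0.474 to 2.59 FPKM there. The long-day total lay between 1.39 FPKM (14 h) and 45.8 FPKM (11 h), neighbouring time points, and was not rhythmic either (adjusted p = 0.730).

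Across the 4 loci, the long-day table gave the test that the selection had not used. Of the 4 gene totals 3 passed, against 31.4% of 18743 genes tested, with DJC76 and AT5G42760 as above and AT1G10650 at 1.496-fold with a peak at 0.023 ± 1.16 h (adjusted p = 0.0449, limma). The usage values that chose the loci can also carry the level of the gene, and the share over all genes was not matched for this. The call of AT1G10650 held in 4 of 16 fits without 1 library, those without 23, 35, 41 or 44 h (adjusted p between 0.0306 and 0.0957 over the 16), and was lost after rescaling to equal medians (0.0676), quantile normalization (0.0656), with no filter on low values (0.0646) and over annotated isoforms alone (0.0869). Of 12 isoforms tested 1 passed, AT5G42760.1, against 8.85% of 32425. For isoforms that is a share near the background.

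Usage itself was not called for any member in long days. With limma, 0 of 15 member isoforms passed the usage rhythm test (adjusted p between 0.728 and 0.995), against 0.00833% of 24009 isoforms, which are 2 isoforms, with 1388 at an unadjusted p under 0.05. Among members 3 had an unadjusted p under 0.05. They were MSTRG.23851.2 with an amplitude (log2) of 1.66 ± 0.46 and a peak at 14.9 h, AT5G42760.1 with 1.32 ± 0.42 at 2.77 h, and MSTRG.22664.2 with 0.81 ± 0.27 at 3.64 h. For AT5G42760 the usage amplitude was 1.51 in continuous light and 1.32 ± 0.42 in long days. That of AT1G10650.1 was 2.37 and 0.51 ± 0.54, and that of the DJC76 intron 3 form 1.74 and 0.81 ± 0.27. These are values side by side, since the difference between regimes was not tested on members chosen in one of them. The other isoforms of a gene, against which usage is taken, also differ between the regimes.

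**Figure D4:**
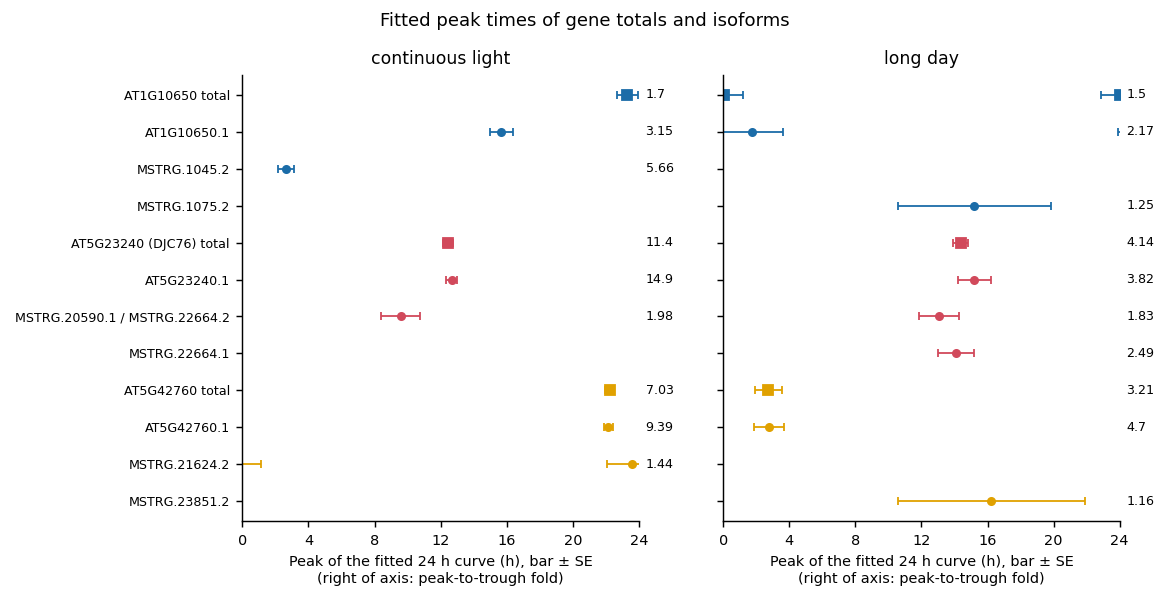
Peak times (h) of the fitted 24 h curves of gene totals (squares) and isoforms (circles) at AT1G10650 (blue), DJC76 (red) and AT5G42760 (yellow), continuous light on the left and long days on the right, with bars for ± 1 SE and the peak-to-trough fold right of each axis. In continuous light AT1G10650.1 and MSTRG.1045.2 lie 10.97 h apart, the DJC76 isoforms 3.08 h and the AT5G42760 isoforms 1.45 h apart.

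Darkness and the second day were then set against light and the first day on usage. In the 6 dark libraries against the 10 light libraries of long days, 0 of 15 member isoforms differed (limma, adjusted p between 0.891 and 0.997; 0 at an unadjusted p under 0.05), against 0.0333% of 24009. Between the second and the first day, 0.198% of 22717 isoforms differed in continuous light. The members' differences between these days are given without a test, because the same values chose the loci. Over 12 member isoforms they lay between -0.79 (AT1G23720.1) and 0.96 (AT1G10650.1) on the log2 scale, second day minus first. That of AT1G10650.1 was 0.96 ± 0.39 and that of MSTRG.1045.2 was -0.50 ± 0.41. In long days 0 of 15 differed between days (adjusted p between 0.261 and 0.999; 1 at an unadjusted p under 0.05), against 3.92% of 24009.

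The gene families of the 4 loci gave the wider setting, with the members counted among them. Of the 9 chloroplast J-domain genes listed, 8 were tested in long days and 4 passed the rhythm test of the gene total. Beside DJC76 these were its relative DJC77 (2.73-fold, peak 4.70 h), DJC75, a J-domain protein of the chloroplast NADH dehydrogenase-like complex (3.4998-fold, 4.06 h), and J11 (2.41-fold, 9.08 h). DJC76 thus peaked nearest to dusk of the 4. In continuous light the same genes peaked at 12.4 h for DJC76, 2.76 h for DJC77, 22.8 h for DJC75 and 7.59 h for J11. Of 10 S-ribonuclease-binding genes 5 passed in long days, AT1G10650 with BOI (1.92-fold, 20.6 h), BRG1 (1.30-fold, 14.4 h), BRG2 (2.38-fold, 19.5 h) and BRG3 (1.40-fold, 1.05 h). Of 15 extensin genes 0 of 12 tested passed (limma, adjusted p between 0.208 and 0.807; 0 also had an unadjusted p under 0.05), AT1G23720 among them. These counts stand against the 31.4% given above, and no test of a list was made. The clock genes listed as phase markers passed in 6 of 7 in long days. GI peaked at 10.4 h under continuous light against 9.24 h under long days, and CCA1 at 3.07 h against 3.47 h. The one that did not pass was TOC1 (limma, adjusted p = 0.833). It shares its long-day gene identifier with another locus, so that its assembled rows were left out. The part of this in its result was not tested.

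Genes whose level over time was most like that of a member isoform were sought among 18037 genes by Pearson's r on log2(FPKM + 1), averaged over both tables where the isoform has a name in both. Over 32 libraries AT5G42760.1 was most like TIC55-II (mean r = 0.960), which encodes a chloroplast oxygenase, cPT4 (0.951), which encodes a cis-prenyltransferase, and PMI2 (0.943), a gene of chloroplast movement. The r of these 3 genes lay between 0.923 and 0.979 in each table. AT5G23240.1 was most like GR-RBP2 (mean r = 0.807), which encodes a glycine-rich RNA-binding protein, AT1G07050 (0.803) and AT5G64680 (0.780), but the tables differed. For GR-RBP2 r was 0.972 in continuous light and 0.641 in long days, for AT1G07050 0.922 and 0.684, and for AT5G64680 0.879 and 0.682. Over the 16 continuous-light libraries MSTRG.1045.2 was most like AT2G42750 (r = 0.956), which is DJC77 of the J-domain list, CDF1 (0.930), a repressor of flowering genes, and CYP79F1 (0.919), an enzyme of glucosinolate synthesis. In the same libraries MSTRG.2283.5 was most like PEN3 (0.925), an ABC transporter of pathogen defence, MSTRG.21624.2 like LOG8 (0.879), a cytokinin-activating enzyme, and MSTRG.20590.1 like AT1G19394 (0.790). AT1G23720.2 was most like AT4G09150 over both tables (mean r = 0.709), and AT1G10650.1 like AT1G09863 (0.626). The libraries share time points and scaling, so these values are descriptions.

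Other features of the loci were read from the tables and the genome. Rows on the opposite strand overlap 3 of the loci and none overlaps AT1G10650. At AT5G42760 there were 8 in each table, among them AT5G06385 and AT5G42765, with a summed level of 7.79 to 33.2 FPKM (median 21.9) in continuous light and 11.6 to 23.5 FPKM (median 14.3) in long days, where the total of the locus itself had medians of 4.19 and 1.92 FPKM. At DJC76 there were 2 such rows in continuous light, at 1.11 to 2.86 FPKM (median 1.80), and 4 in long days, at 1.99 to 31.3 FPKM (median 3.26). The highest long-day value rests on the library of 32 h, where the long assembled row MSTRG.22640.14 had 28.1 FPKM, and the next highest library had 3.99 FPKM. At AT1G23720 there were 4 assembled rows in continuous light, at 0.0746 to 3.94 FPKM (median 1.37), and 9 in long days, at 1.82 to 9.37 FPKM (median 4.97). The sources used here do not say whether libraries kept strand, so reads of a locus and of its antisense partner may not be told apart, and their part in the levels of the unspliced forms of AT5G42760 was not tested. In the 250 nt before each locus the evening element AAATATCT, the CCA1-binding site AAAAATCT, the G-box CACGTG and the morning element CCACAC were searched on both strands. None was found at the 4 loci; they occur in 4.79%, 6.69%, 6.49% and 6.17% of 27443 such windows.

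The FPKM of a library summed to between 578473 and 622006 under continuous light and to between 569534 and 587307 under long days. Between 42675 and 44980 transcripts per library were above 0 under continuous light, against 44336 to 47868 under long days. The number of reads is unknown, so values near 0 have no counting interval, and in whole seedlings fewer cells of a type and less RNA per cell cannot be told apart. RBCS1A and LHCB4.2, taken as leaf markers, had medians of 3620 and 1409 FPKM in continuous light and 2426 and 560 FPKM in long days. PYK10 and HKT1, taken as root markers, had 3067 and 9.24 FPKM in continuous light and 3010 and 8.41 FPKM in long days. Markers of both organs were thus detected, and whether each is limited to its organ was not tested. The lowest long-day library of RBCS1A had 8.86 FPKM.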

How the data were processed

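The authors deposited FPKM of each transcript in each library, in a separate table for each light regime, per the file headers. The submitters' processing notes name TAIR10 as genome build. The sources used here do not name the aligner, the assembler or the quantifier. Positions are those of the files, and 99.6% of the annotated names found in the RefSeq annotation of TAIR10.1 had the same position there, so introns and sequences were read from that genome.

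Gene totals added up the FPKM of the annotated rows of a locus and of assembled rows sharing its gene identifier where that identifier holds 1 locus. Levels were tested on log2(FPKM + 1) with a mean of at least 1 FPKM, and usage where the isoform's mean share was 5 to 95% of such a gene. Rhythms were tested within a table with limma 3.58.1 in R 4.3.3 (lmFit, eBayes with trend) with the moderated F statistic of 24 h cosine and sine terms, with Benjamini-Hochberg adjustment over all features and a threshold of 0.05. The night contrast set the libraries of 17, 20, 23, 41, 44 and 47 h against the others, and the contrast of days, tested on members in long days alone, set 26 to 47 h against 2 to 23 h beside the cosine and sine terms. Peak times and their standard errors come from plain least-squares fits of the same curve, run with numpy 2.4.6. The pipeline was tested on simulated data with independent normal noise, scaled to the long-day values. These data lacked the values at 0 FPKM and the mirrored usage that some members have.

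Isoforms with a mean share of at least 5% in either table were named with values and the others by range and count; the 3 most similar genes were sought for the 2 isoforms of each locus with the highest continuous-light mean. The loci, gene lists and tests were chosen with earlier results of these data known. The labels do not say whether the libraries were grown as separate cultures, and p-values therefore cover only the scatter of these libraries around the fitted curve. Alternatives were other pseudocounts, filters and scalings, annotated isoforms alone, each day alone, a second harmonic, clock time as a block in the contrast of days, and leaving out each library.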

Additional observations from a re-analysis of the deposited data

How the results depend on the processing

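Counts over all isoforms moved with the settings. The 2 isoforms with a usage rhythm in long days became 13 with a pseudocount of 1 FPKM, 34 with shares of 1 to 99% and no gene filter, 0 in the first day or the second day alone, and 2 to 6 without 1 library. The 8 of the night contrast became 4 with a pseudocount of 0.1 FPKM, 13 with the looser filter, 4 with annotated isoforms alone and 1 to 12 without 1 library. The 45 that differed between days in continuous light became 95 with a pseudocount of 1 FPKM, 106 with the looser filter, 71 with annotated isoforms alone and 15 to 92 without 1 library, and the 941 in long days became 264 with annotated isoforms alone and 862 to 923 without 1 library. With the 8 clock times, each sampled on both days, as a block of pairs in place of the cosine and sine terms, an alternative chosen after seeing the data, these counts were 8 in continuous light and 807 in long days. In each of these long-day settings of usage rhythm, night and day 0 members were called. Of the level tests in long days, the member isoforms called were 0 with no filter on low values and 0 to 2 without 1 library.

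For continuous light, alternatives added after seeing the data gave 9 isoforms with a usage rhythm with a pseudocount of 1 FPKM, 6 of them members, and 12 with the looser filter, 7 of them members, so the count of 0 depends on these settings; as the same values chose the members, this is a description. Amplitudes taken along the main peak changed sign for members that no setting called. In long-day usage, AT5G42760.2 gave -0.0456 (pseudocount 0.1 FPKM) and -0.0414 (first day), AT1G10650.1 -0.0098 (annotated isoforms alone), and in the second day MSTRG.1075.3 gave -0.70, MSTRG.2429.10 -0.0250, MSTRG.2429.6 -0.0750 and MSTRG.2429.9 -0.60. The gene total of AT1G23720 gave -0.0568 with annotated isoforms alone. Without 1 library the level of AT1G23720.2 ran from -0.0235 to 0.14 and that of MSTRG.2429.7 from -0.0731 to 0.59. The cause of these shifts was not tested. Read counts are unknown, which limits what values near 0 FPKM can show.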
